A study of Caenorhabditis elegans with 2 samples.

Results

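Pre-mRNA splicing factor genes were taken as the protein-coding genes of Caenorhabditis elegans whose symbols begin with prp-, mog-, rsp-, snr-, snrp-, uaf-, sftb- or lsm-. The Ensembl annotation of assembly WBcel235, which is the ce11 of the deposited lists, held 51 such genes among 19973 protein-coding genes. They were 13 prp-, 8 rsp-, 7 snr-, 7 lsm-, 6 mog-, 5 snrp-, 3 sftb- and 2 uaf- genes. The measurement was chromatin immunoprecipitation with sequencing (ChIP-seq) of the protein of Y105C5A.15, which RefSeq describes as a BED-type domain-containing protein. The worms were strain OP773, whose integrated transgene wgIs773 makes Y105C5A.15 joined to TY1, EGFP and 3xFLAG tags and carries a rescuing unc-119(+), in an unc-119 (tm4063) background. They were L4 larvae of 48 hours, raised from arrested first-stage larvae, and an antibody to GFP was used for the precipitation. All samples carry the transgene and the unc-119 allele, and they form 1 group of 2 biological replicates. No other condition and no untagged worm was analysed here, so no value compares 2 states. Every value describes enrichment with the antibody to GFP, and the part of background of the precipitation in it was not tested. The labels do not say which tissues or promoter make the fusion, and a signal from whole larvae does not show the cells it came from.

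The spliceosome removes introns from pre-mRNA through small nuclear ribonucleoproteins (snRNPs), each a small nuclear RNA (snRNA) with its proteins. Sm proteins form a ring on most spliceosomal snRNAs and the related LSm proteins a ring on U6. The U1 and U2 snRNPs, with U2AF, mark the splice sites and the branch site, and the U4/U6 and U5 snRNPs then join. DEAH-box helicases and the Prp19 complex drive activation and catalysis, while SR proteins, with their arginine and serine repeats, bind exons and help to choose splice sites. In worms several of these genes were first known as mog genes, whose loss keeps hermaphrodite germ cells making sperm in place of oocytes. Not every symbol on the list is only about splicing, since lsm-1 is best known for its part in cytoplasmic mRNA decapping.

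Of the 51 genes, 5 were bound, meaning that a summit of the main thresholded peak list lay from 1000 bases upstream to 200 bases downstream of the gene start. They were mog-4, prp-19, rsp-6, snrp-200 and snr-4, and the other 46 were not bound. The 5 make 9.80% of the list. The same rule called 388 of 19973 protein-coding genes, or 1.94%. At 1 of the 5, snr-4, the strongest summit lay inside an snRNA gene, and at prp-19 another coding gene started nearer to the summit. The 5 are on 4 chromosomes, and all 5 are transcribed from the minus strand, as are 23 of the 51.

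The main list holds 1046 peaks that the authors kept from both replicates together, against 103220 in the matching ranked list. A peak's signal is the authors' own value, and no source used here says how it was scaled. Each peak also has an irreproducible discovery rate (IDR), an estimate of how likely its place in the ranking is not to repeat, and peaks of the thresholded lists have an IDR of at most 0.01. Peaks of the main list had a median signal of 63.5 with quartiles of 55.3 and 81.4, and 29.7% of them (311) had a small RNA gene (rRNA, tRNA, snRNA or snoRNA) within 100 bases of the summit. The ranked lists held 48421 peaks in replicate 1 and 54844 in replicate 2. The files carry no read counts, so the depth is unknown.

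Sequences under 4 of the bound summits are shown because they lie in the called peaks and because they differ in kind. The first 2 are intergenic, the third is the start of a coding sequence and the fourth holds an snRNA gene. All are from the RefSeq copy of WBcel235 and read 5′ to 3′. The prp-19 stretch is chrIII:5172649-5172719 on the minus strand, the rsp-6 peak is chrIV:7791334-7791589 on the minus strand, and the snrp-200 stretch is chrII:12736664-12736875 on the minus strand, starting at the ATG. In these the capitals are the 21 bases centred on the summit. The snr-4 peak is chrV:11980064-11980319 on the plus strand, the strand of the snRNA gene, whose 144 bases are in capitals.
prp-19: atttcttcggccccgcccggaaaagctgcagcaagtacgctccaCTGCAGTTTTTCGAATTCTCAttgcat
rsp-6: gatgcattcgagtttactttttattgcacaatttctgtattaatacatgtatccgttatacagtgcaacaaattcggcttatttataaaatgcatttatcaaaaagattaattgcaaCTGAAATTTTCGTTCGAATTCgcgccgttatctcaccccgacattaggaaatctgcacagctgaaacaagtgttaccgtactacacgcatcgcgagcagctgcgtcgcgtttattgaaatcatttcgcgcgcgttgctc
snrp-200: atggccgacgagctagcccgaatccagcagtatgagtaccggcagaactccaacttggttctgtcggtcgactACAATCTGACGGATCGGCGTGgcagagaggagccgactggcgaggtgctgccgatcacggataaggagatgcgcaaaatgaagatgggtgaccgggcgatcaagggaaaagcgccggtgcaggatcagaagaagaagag
snr-4: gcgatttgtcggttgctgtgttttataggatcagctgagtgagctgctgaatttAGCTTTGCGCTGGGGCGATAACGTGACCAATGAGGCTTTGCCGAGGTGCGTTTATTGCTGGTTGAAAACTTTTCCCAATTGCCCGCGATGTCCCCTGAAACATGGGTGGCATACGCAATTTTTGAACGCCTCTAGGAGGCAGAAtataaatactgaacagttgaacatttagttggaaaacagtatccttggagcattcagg

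mog-4, which encodes the DEAH-box helicase known as Prp2 in yeast and needed to activate the spliceosome, had the highest signal of all 51 genes. Its peak (chrII:14561764-14562019) had a pooled signal of 104.0 and an IDR of 0.000199, which placed it at rank 109 of the 1046 peaks by signal. The summit, at position 14561892, lay between genes and 293 bases upstream of the gene start. Replicate 1 gave a signal of 60.7 with an IDR of 0.000256, and replicate 2 gave 49.6 with an IDR of 0.0011, a mean of 55.2 ± 7.82 (SD, n = 2). It was the only gene of the 51 with a summit in the thresholded list of each replicate alone as well as in both lists over the replicates. No gene start lay nearer to the summit than that of mog-4, and the next gene upstream was the pseudogene C01G12.12.

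The mog-4 peak is partly repeated sequence. Its bases 62 to 256, summit included, had 7 near-identical copies elsewhere in the genome, with 94.9% to 98.98% identity over 195 to 199 bases. None of the 7 copies carried a peak of the main list, and 3 carried a ranked peak with signals of 17.1 to 37.0, below the signal at mog-4. No source used here says how reads matching several copies were placed, and the part of that step in the height of the peak was not tested. Of all main peaks, 26.7% (279) had at least 1 such copy, counted from 90% identity over 100 bases.

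prp-19, which encodes the ubiquitin ligase at the core of the Prp19 complex, had the second highest signal. Its peak (chrIII:5172537-5172792) had a pooled signal of 98.2, an IDR of 0.000755 and rank 139. Replicate 1 gave 32.7 with an IDR of 0.0528, and replicate 2 gave 67.5 with an IDR of 0.00263, a mean of 50.1 ± 24.6 (SD, n = 2). The replicates thus differed more here than at any other bound gene of the list, with a log2 ratio of replicate 2 over replicate 1 of 1.04. Over the 1018 main peaks with a ranked peak in both replicates the median of that ratio was 0.11, and 8.15% had a ratio beyond 1 in either direction. The summit lay 620 bases upstream of prp-19 and only 55 bases upstream of K10D2.5, an uncharacterised coding gene that runs the other way. It also fell in the window of emb-1, 774 bases upstream of that gene. The peak alone does not tell which of the 3 genes, if any, it belongs to. Part of the interval, away from the stretch printed above, had 5 copies of at most 91.7% identity over 100 to 118 bases, none with a main peak and 3 with ranked signals of 6.38 to 16.7.

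rsp-6, which encodes a small SR protein, had a peak (chrIV:7791334-7791589) with a pooled signal of 64.3, an IDR of 0.00454 and rank 505. Replicate 1 gave 24.8 with an IDR of 0.326, and replicate 2 gave 29.1 with an IDR of 0.102, a mean of 26.95 ± 3.01 (SD, n = 2). The replicates were close in signal, but neither alone reached the limit of 0.01. The summit lay 233 bases upstream of the gene start, in the 475 bases that separate rsp-6 from C33H5.13, a gene on the same strand. The nearest small RNA gene was 94026 bases away, and the peak had no near-identical copy.

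snrp-200, which encodes the U5 helicase known as Brr2 in yeast that unwinds U4 from U6, was the only bound gene with its summit in coding sequence. Its peak (chrII:12736664-12736919) had a pooled signal of 63.3, an IDR of 0.00328 and rank 531. Replicate 1 gave 34.1 with an IDR of 0.0522, and replicate 2 gave 29.1 with an IDR of 0.0968, a mean of 31.6 ± 3.55 (SD, n = 2). The summit lay 118 bases downstream of the gene start, inside the first coding stretch printed above. The same-strand gene pisy-1 ends 122 bases upstream of snrp-200, and the nearest small RNA gene, a snoRNA gene within pisy-1, was 1210 bases away. The peak had no near-identical copy.

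snr-4, which encodes the Sm protein D2, had its strongest summit inside a small RNA gene. The peak (chrV:11980064-11980319) had a pooled signal of 43.3, an IDR of 0.00145 and rank 991, the lowest signal of the 5. Its summit, at position 11980192, lay 469 bases upstream of snr-4 and 74 bases into an snRNA gene on the opposite strand (chrV:11980118-11980261). Ensembl calls this gene T11F9.15 and RefSeq calls it C52E4.8. Replicate 1 gave 27.2 with an IDR of 0.0842 and a summit 19 bases from the snRNA gene, and replicate 2 gave 27.9 with an IDR of 0.00417, a mean of 27.6 ± 0.553 (SD, n = 2). A second main peak overlapped the first (chrV:11980267-11980522), with a summit 134 bases from the snRNA gene, a pooled signal of 28.7 and an IDR of 0.00145. The first summit thus lay in the windows of both the Sm gene and the snRNA gene. The second, 277 bases downstream of the snRNA gene start, lay in the window of snr-4 but not in that of the snRNA gene. The nearest start to both summits was that of the snRNA gene. The snRNA sequence had 4 near-identical copies, all at annotated snRNA genes of the same chromosome, of which none had a main peak and 1 had a ranked peak of signal 5.34. Leaving out every summit within 100 bases of a small RNA gene kept snr-4 bound through its second peak. For that peak replicate 1 gave 14.9 with an IDR of 0.125. In replicate 2 the peak matched to it was the same peak of 27.9 as for the first. Whether a weaker replicate 2 peak lay there was not examined. At 250 bases snr-4 was lost, 4 members remained and the share of all protein-coding genes was 1.53%.

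**Figure D1:**
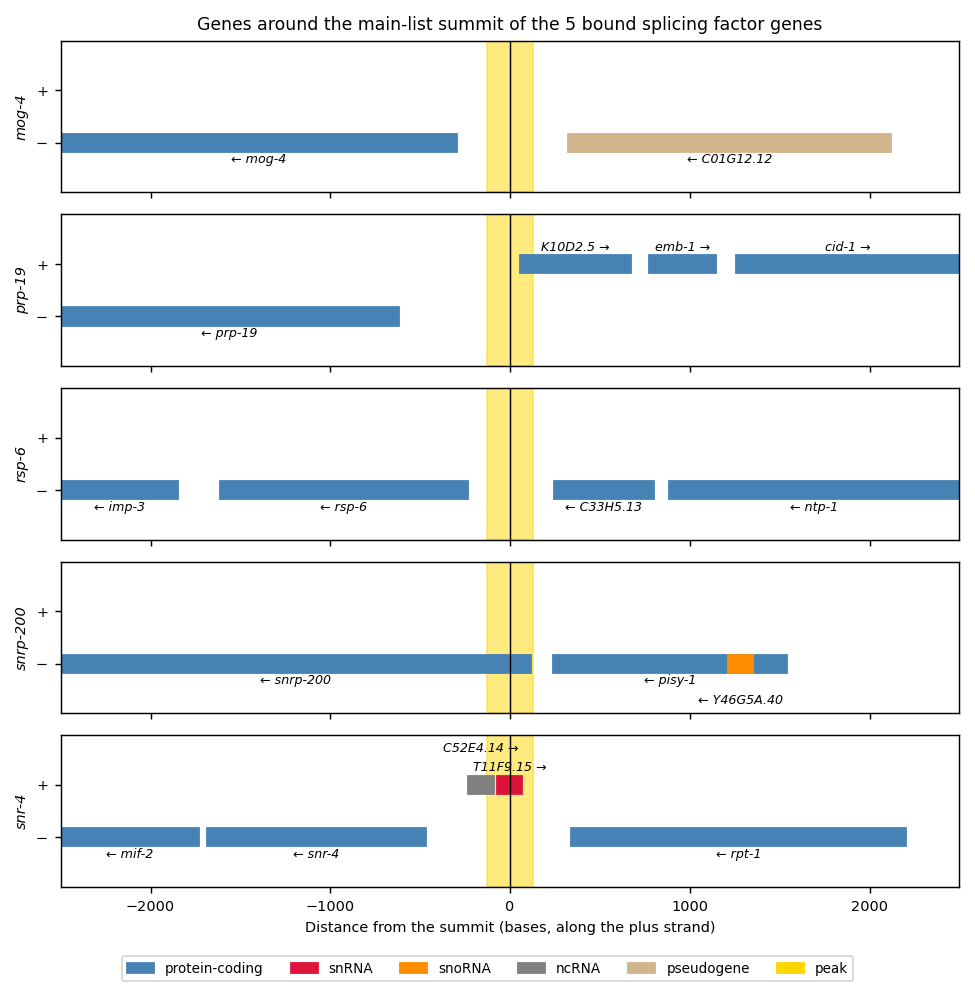
Annotated genes within 2500 bases of the main-list summit of each bound splicing factor gene, drawn along the plus strand with distance from the summit in bases on the horizontal axis and strand on the vertical axis. Shaded bands are the peaks: the summit is 293 bases from the start of mog-4, nearer to K10D2.5 than to prp-19, within snrp-200, and inside the snRNA gene T11F9.15 beside snr-4.

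The number of bound genes depended on how the lists were made. The authors' conservative list of 848 peaks gave 5 of the 51 genes, against 326 protein-coding genes, or 1.63%. The thresholded list of replicate 1 alone, with 350 peaks, gave only mog-4, against 132 protein-coding genes, or 0.661%. The list of replicate 2 alone, with 329 peaks, gave mog-4, prp-19 and snr-4, against 123 protein-coding genes, or 0.616%. rsp-6 and snrp-200 were thus called from both replicates together and from neither alone. With 2 replicates, each SD given here rests on a single difference.

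**Figure D2:**
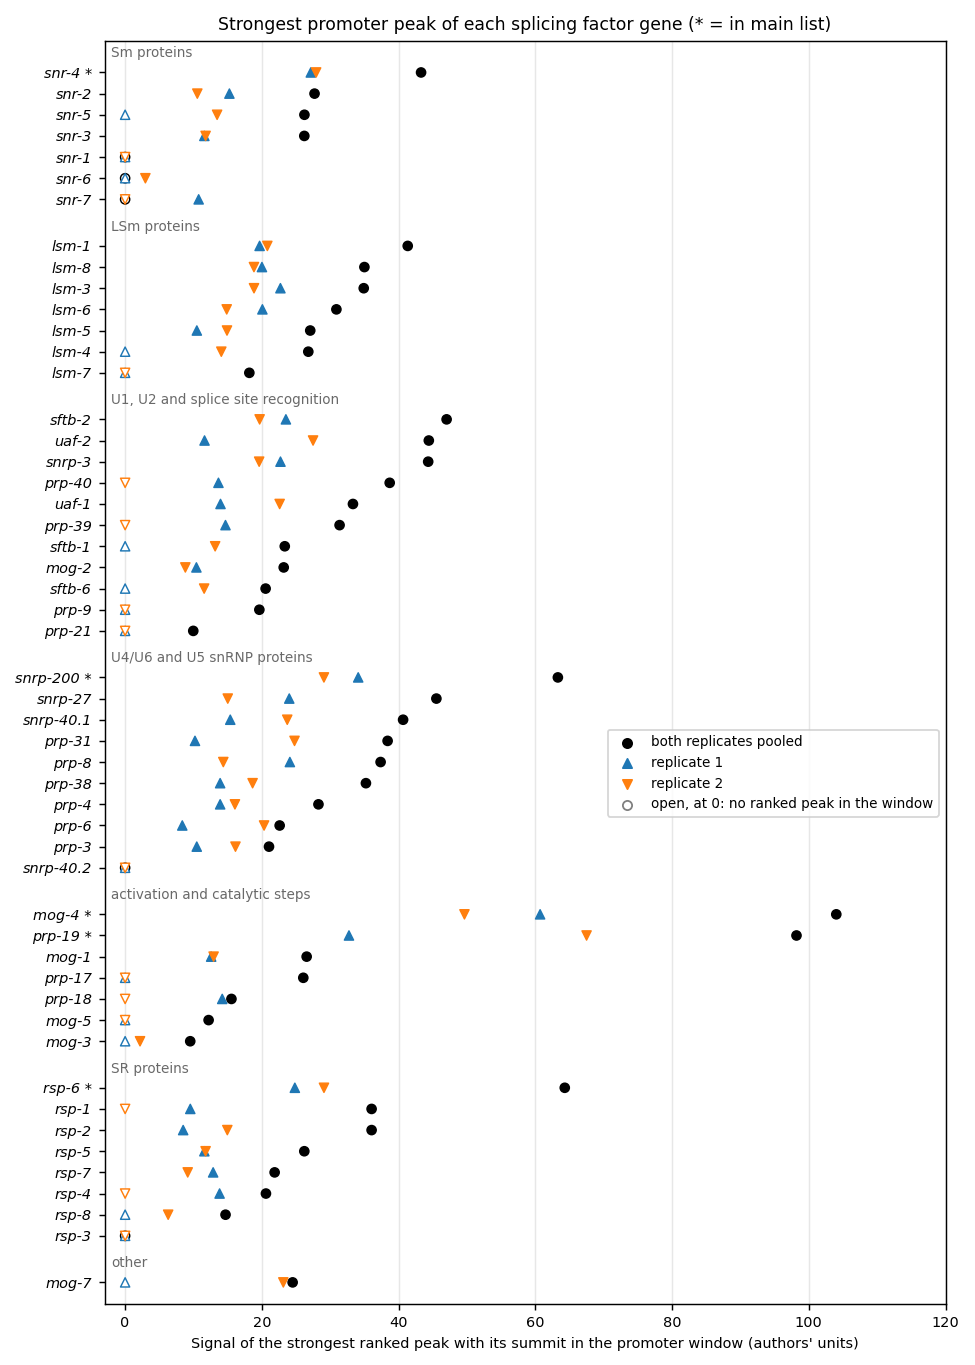
Signal of the strongest ranked peak in the promoter window of each of the 51 splicing factor genes, by role, in the authors' units on a linear axis from 0. Circles are the pooled list, triangles each replicate's own strongest peak, which may lie elsewhere in the window, and open symbols at 0 mark genes with no ranked peak; mog-4 at 104.0 and prp-19 at 98.2 lie apart from every other member.

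Sorted by role, the 51 genes fell into classes of at most 11. With 1.94% of all protein-coding genes bound, counts of 0 to 2 bound genes do not tell such small classes apart. The Sm genes had a median pooled signal of 26.2. Of the 7 Sm genes 4 had a pooled ranked peak in the window, against 73.6% of all protein-coding genes. The highest unbound one was snr-2, which encodes Sm protein B, with a pooled signal of 27.7 and an IDR of 0.329. snr-5 (Sm F) had 26.2, and snr-3 (Sm D1) also had 26.2. No ranked peak was listed for snr-1 (Sm D3) in the pooled list or in either replicate. snr-6 (Sm E) and snr-7 (Sm G) had none in the pooled list.

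None of the 7 LSm genes was bound, against 1.94% of all protein-coding genes. All 7 had a pooled ranked peak, against 73.6% of all protein-coding genes. Their median pooled signal was 30.9, between 18.2 for lsm-7 and 41.3 for lsm-1. At lsm-1 the summit lay 317 bases upstream, the IDR was 0.0922, and the replicates gave 19.7 in replicate 1 and 20.8 in replicate 2, a mean of 20.2 ± 0.80 (SD, n = 2). Both replicates put their summit within 2 bases of the pooled one there, so that the position repeated although the peak did not pass the limit. lsm-8, whose protein takes the place of LSm1 in the ring on U6, had 35.0 with an IDR of 0.294.

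None of the 11 genes for U1, U2 and splice site recognition was bound, yet 3 of the 5 highest unbound signals were among them. sftb-2, which encodes a subunit of the branch-site complex SF3b, had a pooled signal of 47.0 at 583 bases upstream with an IDR of 0.122. Its replicates gave 23.5 in replicate 1 and 19.7 in replicate 2, a mean of 21.6 ± 2.72 (SD, n = 2). uaf-2, which encodes the small U2AF subunit that reads the end of the intron, had 44.4 at 18 bases downstream with an IDR of 0.454. Its replicates were 11.6 in replicate 1 and 27.5 in replicate 2, a mean of 19.6 ± 11.2 (SD, n = 2), which is a wide spread. In the pooled list snrp-3 was the member nearest to the limit on the outside, with 44.3 at 309 bases upstream and an IDR of 0.0329. It had 22.7 in replicate 1 and 19.6 in replicate 2, a mean of 21.2 ± 2.20 (SD, n = 2). The authors' other ranked list over both replicates gave sftb-2 an IDR of 0.0598 and snrp-3 one of 0.0651. Which unbound member was nearest thus depended on the list. The bound member nearest to the limit was rsp-6 in both lists, with an IDR of 0.00454 in the pooled list and 0.00887 in the other. In that other list snr-4 had an IDR of 0.00705. uaf-1, for the large U2AF subunit, had 33.3 with an IDR of 0.113, and sftb-1, for the SF3B1 protein that holds the branch site, had 23.4 with an IDR of 0.399.

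Among the 10 genes of the U4/U6 and U5 snRNPs, snrp-200 was bound and the median pooled signal of 36.3 was the highest of the role classes with more than 1 gene. snrp-27, for a protein of the U4/U6 and U5 particle, had 45.5 at 103 bases downstream with an IDR of 0.218. Replicate 1 gave 24.0 with its summit at the same base. The strongest peak of replicate 2, 15.0, lay at -989 relative to the gene start, so it is another peak and no mean is given. prp-8, for the large U5 protein at the catalytic centre, had 37.4 with an IDR of 0.338, and prp-31, a U4/U6 protein, had 38.4 with an IDR of 0.148. No ranked peak was listed in any of the 3 lists for snrp-40.2, whereas its namesake snrp-40.1 had 40.7 with an IDR of 0.0912.

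Of the 7 genes for activation and the catalytic steps 2 were bound, mog-4 and prp-19. The others stayed at or below 26.6, the pooled signal of mog-1, which encodes the helicase known as Prp16 in yeast. mog-5, for the helicase known as Prp22 that releases the spliced mRNA, had 12.2 with an IDR of 0.786, and neither replicate listed a peak in its window. The helicase genes of this class therefore ran from 104.0 for mog-4 to 12.2 for mog-5.

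Of the 8 SR protein genes only rsp-6 was bound. rsp-3, the worm gene for the SR protein SRSF1, had no ranked peak in any of the 3 lists. The highest unbound value, 36.1 with an IDR of 0.223, belongs to rsp-1 and rsp-2 alike, because they are transcribed away from each other from starts 407 bases apart and share the same peak. rsp-5 and snr-3, with starts 404 bases apart, share a peak of 26.2 in the same way. mog-7, which was sorted into no role, had 24.5 with an IDR of 0.456.

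Signal and IDR did not always run together. uaf-2 had a slightly higher pooled signal than snr-4, 44.4 for uaf-2 and 43.3 for snr-4, but its IDR was 0.454 and that of snr-4 was 0.00145. Over the 41 unbound genes with a pooled ranked peak the signal ran from 9.52 to 47.0 with a median of 26.8, and the IDR ran from 0.0329 to 0.786. The IDR was above 0.3 for 27 of them and at most 0.05 for 1 (snrp-3). Shares of all protein-coding genes at these 2 values were not counted. An IDR of at most 0.01 was met by 0 of them, which the rule for bound genes nearly fixes. Of all protein-coding genes 393 had a pooled ranked peak at that limit and 388 were bound. None of these 41 summits had a small RNA gene that close, by the limit of 100 bases.

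**Figure D3:**
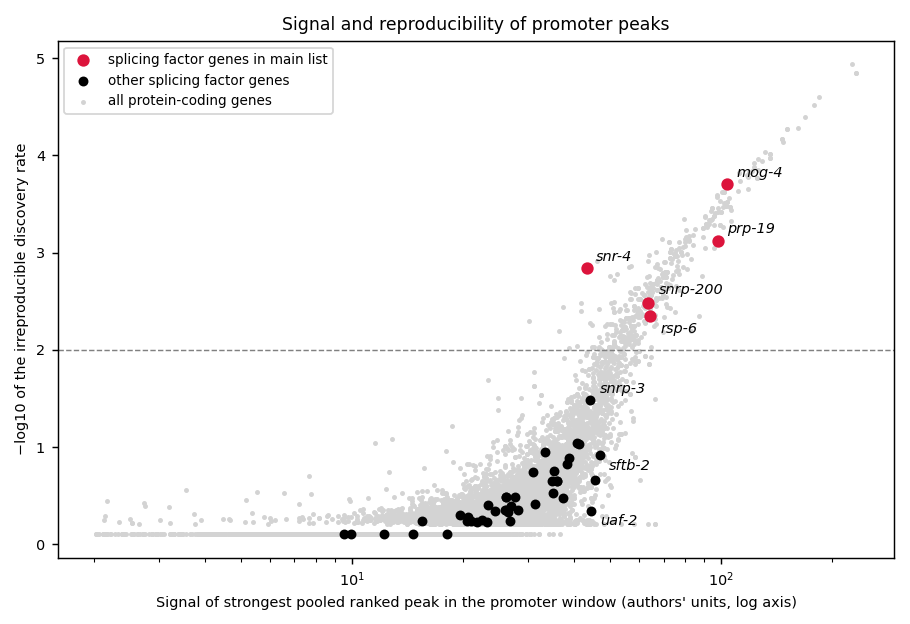
Pooled signal (log axis, authors' units) against −log10 of the IDR for the strongest ranked peak in each promoter window, with splicing factor genes in colour or black over all protein-coding genes in grey; the dashed line is an IDR of 0.01. The 5 bound genes lie above the line, snrp-3 is the nearest below it, and uaf-2 at a signal of 44.4 lies far below snr-4 at 43.3.

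Most of the 51 genes had a ranked peak of some height. With a gene that had no ranked peak counted as 0, the median pooled signal of the 51 genes was 26.8 with quartiles of 20.6 and 37.9, against 18.2 with quartiles of 0 and 26.9 for all protein-coding genes. A pooled ranked peak lay in the window of 90.2% of the splicing factor genes, against 73.6% of all protein-coding genes. In replicate 1 the share was 68.6% of the splicing factor genes, against 46.6% of all protein-coding genes. In replicate 2 it was 72.5% of the splicing factor genes, against 49.6% of all protein-coding genes. The median signal of the splicing factor genes was 11.6 in replicate 1 and 13.5 in replicate 2, against 0 for all protein-coding genes in both. No test was made of these differences, since the genes were listed by symbol with earlier results of the data known.

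At all 5 bound genes both replicates had the summit of their strongest peak within 100 bases of the pooled one. The pooled list comes from the same replicates, so it is no independent check of position. At snr-4 the replicate summits lay at -376 in replicate 1 and -489 in replicate 2 relative to the gene start. Among the unbound genes 24 had a ranked peak in all 3 lists and 12 of them met the same limit, among them lsm-1, snrp-3, sftb-2 and uaf-2. Over all protein-coding genes with a peak in the 3 lists the share that met it was 45.6%, and over those of them that were bound it was 87.9%. Of the 46 pooled summits of the splicing factor genes 11 lay downstream of the gene start, 16 within the first 500 bases upstream and 19 further upstream. Downstream summits made 23.9% of them, against 19.2% over all protein-coding genes.

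**Figure D4:**
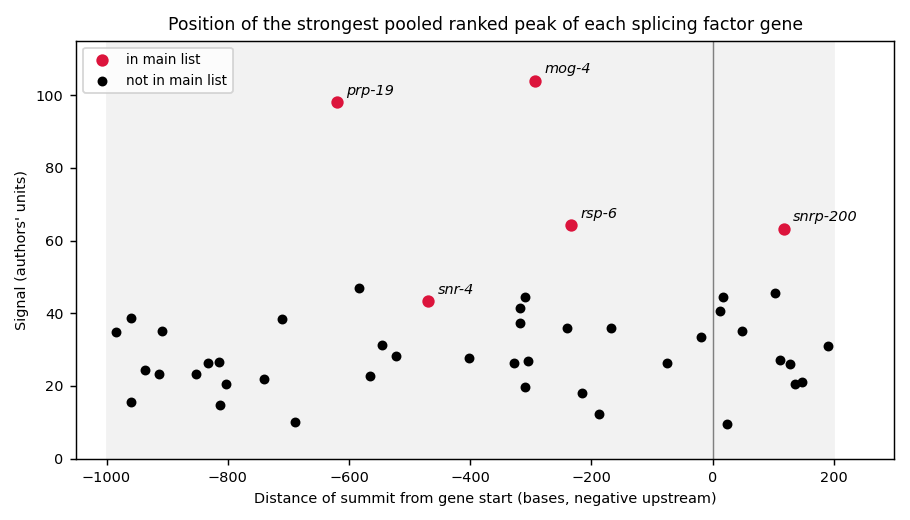
Distance of the strongest pooled ranked summit from the gene start (bases, negative upstream) against its signal in the authors' units for the 46 splicing factor genes with such a peak; the shaded span is the promoter window. The 5 bound genes have summits from 620 bases upstream to 118 bases downstream, and the unbound ones are spread over the whole window at signals of 9.52 to 47.0.

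In worms some genes lie close behind another on the same strand and may be transcribed from the promoter of the first. A coding gene on the same strand ended within 500 bases upstream of 13 of the 51 genes, or 25.5%, against 18.1% of all protein-coding genes. Of the bound genes rsp-6 and snrp-200 had such a neighbour.

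Short sequence words at the summits were read on both strands in 100 bases centred on each summit. The word CGAACC, which many tRNA genes hold, was found at 0 of the 5 bound summits, at 15.5% of all main summits and in the 100 bases upstream of 1.04% of protein-coding genes. A word that can overlap it, GAACCC, was at 0 of the 5, at 12.7% of all main summits and in 1.13% of the coding promoters. The word ACCACT was at 0 of the 5, at 16.0% of all main summits and in 2.61% of the coding promoters. The word GGCCGA was at 1 of the 5, prp-19, where its reverse complement stands near the left end of the stretch printed above. It was at 9.08% of all main summits and in 0.991% of the coding promoters. The word TATAAA was at 1 of the 5, rsp-6, at 6.50% of all main summits and in 19.3% of the coding promoters. The 100 bases had a GC content of 60% at snrp-200, 52% at prp-19, 49% at snr-4, 42% at mog-4 and 35% at rsp-6, against a median of 48% over the main peaks. None of these words was shared by 2 of the bound summits.

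Splicing genes with other symbols were read in the same way from a list of 88, of which 75 were matched to the annotation. Of these 6 were bound, or 8.0%, against the 1.94% of all protein-coding genes. Their median pooled signal was 22.6, against 18.2 for all protein-coding genes. Of the 6 genes for SR-related proteins and kinases 3 were bound. They were rbm-39, for a U2AF-like protein, with 59.6 at 5 bases downstream of the start, rsr-1, for the worm SRm160, with 58.9 at 456 bases upstream but nearer to the start of the coding gene sri-5 at 276 bases, and swp-1, of the suppressor-of-white-apricot family, with 37.4 at 94 bases downstream. prmt-5, whose protein methylates Sm proteins, had the highest signal of the 6 with 83.8 at 44 bases downstream, and it alone was also called in each replicate. ddx-23, for the helicase known as Prp28 in yeast, was the 1 bound of 11 tri-snRNP genes, with 66.9 at 156 bases upstream. hrpr-1, an hnRNP gene, was the 1 bound of 19 hnRNP and tissue regulator genes, with 75.2 at 991 bases upstream, where the summit lay inside a tRNA gene. At hrpr-1 the strongest peak of replicate 1 in the window was 8.70 at 90 bases downstream. Replicate 2 gave 32.9 there with an IDR of 0.768. swp-1 was called in replicate 1 only, and the strongest replicate 2 peak lay at -103 relative to its start. ddx-23, hrpr-1, rbm-39 and rsr-1 were called in neither replicate alone. None of the 14 genes of the Prp19 complex and catalytic stage, the 8 of U2 and the branch site, the 3 of U1 or the 5 of spliced leader trans-splicing was bound.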

How the data were processed

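ChIP-seq peak lists of Y105C5A.15 in L4 larvae were analysed for 2 biological replicates of 1 group. Per the labels' text records, the authors made ranked and thresholded lists on ce11 from filtered alignments, 1 control alignment and, for the thresholded lists, 1 further file of unstated role. No source used here names the aligner or the peak caller. The signal of each peak is the value the authors deposited, of unstated scaling. The deposited ranked lists hold the −log10 of the IDR. The deposited score follows from it as a whole number of up to 1000, and 830 or more means an IDR of at most 0.01. The ranked list that held all 1046 main peaks was used as the pooled list. A second ranked list over both replicates held 1040 of them. No list was filtered further. With no read counts in the files, the depth is unknown.

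Summits were placed in windows of gene starts from Ensembl release 115 with the mitochondrion left out, using pandas 2.3.3, numpy 2.4.6 and scipy 1.17.1. Placement was tested on simulated summits planted inside and outside the windows, and 200 of 200 were assigned or left out as planted. Sequence came from RefSeq WBcel235 with Biopython 1.88, and copies from BLAST 2.17.0 with at least 90% identity over 100 bases. Figures were drawn with matplotlib 3.10.9. Coordinates are 1-based.

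Members, gene lists, role classes and words were chosen with earlier results of these data known, so no set test was made and only counts and medians are given. The genes described in full are the bound members, unbound members with an IDR of at most 0.05, the 10 with the highest pooled signal and the highest of each prefix. Other members are named to describe their role class and were chosen after their values were seen. Alternatives were other lists, windows, gene starts, ways to assign summits, small RNA limits and single replicates.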

Additional observations from a re-analysis of the deposited data

How the results depend on the processing

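The count of bound splicing factor genes was again 5 with the conservative list, against 1.63% of all protein-coding genes. It was 5 with all pooled ranked peaks past the IDR limit (1.97% of all), any transcript start (2.21%), interval overlap (2.19%), and without summits within 100 bases of a small RNA gene (1.55%). Among main peaks at or above the median signal it was 3 (mog-4, prp-19 and rsp-6), against 1.10% of all protein-coding genes. In a window of 500 bases upstream to 100 downstream it was 3 (mog-4, rsp-6 and snr-4), against 1.21%. With each summit given only to the nearest start of any gene it was 3 (mog-4, rsp-6 and snrp-200), against 1.05%, since the snRNA gene took both summits at snr-4 and K10D2.5 took the one at prp-19. With the nearest coding start it was 4, against 1.56%. In a window of 2000 bases upstream it was 6, with snr-5 added, against 2.93%. With 1 replicate left out it ran from 1 (against 0.661%) to 3 (against 0.616%). The count of 6 among the other splicing genes ran from 1 to 2 in the same way, and was 5 under each of the 3 other alternatives. The median pooled signal of 26.8 was 12.2 in the window of 500 and 100 bases and 34.9 in the window of 2000 bases, and ran from 11.6 to 13.5 with 1 replicate left out. The median over all protein-coding genes was 0 in each replicate alone and was not taken in the other 2 windows. Signals of single replicates and of the pooled list are on scales that were not shown to be the same. Of single pooled signals, mog-4, rsp-6 and snr-4 had the same value in the narrower window, while prp-19 and snrp-200 had no pooled ranked peak there. At snrp-200 the pooled summit lay 118 bases downstream, just outside that window, and the replicate 1 summit lay 94 bases downstream, inside it. No paired analysis was possible because the 2 replicates belong to 1 group.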
